A study of Mus musculus with 2 samples.

Results

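The insulin-like growth factor binding protein (IGFBP) family was measured in blood of injured mice as 6 genes, Igfbp2, Igfbp3, Igfbp4, Igfbp5, Igfbp6 and Igfbp7, taken by symbol from the 32285 genes of the deposited matrices. They were counted over all 1857 cell barcodes of 2 single-cell libraries, 1008 in replicate 1 and 849 in replicate 2, including barcodes rich in mitochondrial RNA. The mice of both libraries were wild type and had received the treatment labelled burn/tenotomy, a skin burn joined with a cut tendon. Whole blood was enriched with the iChip, a microfluidic sorter, and barcoded on the 10x Genomics Chromium, and the labels name the cells "cMPCs and blood cells". The 2 libraries form 1 group, with no uninjured or unsorted sample, so nothing below compares injured with uninjured blood. Whether each replicate is its own mouse is not stated in the labels, so their spread may be technical.

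Barcodes holding at least 2 of the 5 genes Wt1, Muc16, Gpm6a, Col3a1 and Dcn are called marker barcodes here. They numbered 32 of 1008 in replicate 1 and 23 of 849 in replicate 2, which left 976 and 826 other barcodes. The genes were chosen by their UMI counts in these same libraries, where Igfbp5 had already been seen among the leading genes of barcodes with Gpm6a and Col3a1, and the barcodes were selected on the measured UMIs of the 5 genes. The values are therefore given as a description and no test was made. Levels are summed unique molecular identifiers (UMIs, each standing for 1 captured RNA molecule) per 1e6 UMIs of all genes, written as CPM. A second scale divides by the UMIs that are neither haemoglobin nor mitochondrial, because these take most UMIs of many blood barcodes, and is named wherever it is used. Intervals are exact 95% intervals (Poisson for levels, Clopper-Pearson for shares) and cover counting error only.

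IGFBPs are secreted proteins that hold insulin-like growth factors (IGF-I and IGF-II) in the circulation and in tissue, and so set how much of them reaches the IGF-I receptor. Proteases such as PAPP-A cut the binding proteins and free the growth factor. Several members also bind the extracellular matrix or cell surfaces and act apart from IGFs. Mesothelium, the lining of the body cavities that Wt1 and Muc16 mark, and connective tissue fibroblasts are known sources of several of them.

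The libraries held 3967318 and 3329292 UMIs, and no barcode sequence was shared between them (0). Marker barcodes held 104897 and 123730 of these UMIs, with a median depth of 2203.5 and 4592 UMIs and a median mitochondrial share of 16.3% and 7.08%. The other barcodes had median depths of 2225 and 1606 UMIs, and 845 of the 1802 were at least 50% haemoglobin. In marker barcodes all 13 mesothelial genes that had no part in choosing them were found in both libraries (469 and 771 UMIs), and 9 of 12 such fibroblast genes in each (100 and 257 UMIs). Of the fibroblast genes, Lum and Pi16 were at 0 in both libraries and Pdgfra had 0 and 2 UMIs. The rule itself used 3 mesothelial genes and 2 matrix genes, and nothing in the labels ties these barcodes to the cMPCs. None of 12 T or NK cell genes was found (0 UMIs), and the pan-leukocyte gene Ptprc lay in 2 of 32 and 0 of 23 marker barcodes. The leukocyte list as a whole gave 16 UMIs from 5 of its 10 genes in replicate 1 and 1 UMI in replicate 2. Of 10 B cell genes 6 were found in replicate 1, with 19 UMIs in 2 marker barcodes, and none in replicate 2. Haemoglobin and other erythroid genes gave 4028 and 486 UMIs there. Doublets were not called, and the part of such RNA in the results was not tested.

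Igfbp5, Igfbp6 and Igfbp4 made up nearly all IGFBP RNA of the marker barcodes, Igfbp7 was rare, and Igfbp2 and Igfbp3 were almost absent. The family had 385 UMIs in marker barcodes of replicate 1 and 436 in those of replicate 2, against 99 and 82 in the far more numerous other barcodes. That is a level of 3670 CPM (3313 to 4056) and 3524 CPM (3201 to 3871) in marker barcodes, a mean of 3597 ± 104 (SD, n = 2). In other barcodes it was 25.6 CPM in each library. The libraries thus lay close together and the marker and other barcodes far apart, by 143-fold in replicate 1 and 138-fold in replicate 2. Part of this distance is the denominator: on the scale without haemoglobin and mitochondrial UMIs the folds were 27.4 and 20.6. With barcodes over 20% mitochondrial left out on both sides the CPM fold was instead 1415 ± 818 (SD, n = 2), since most family UMIs of other barcodes lay in those left out.

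Igfbp5, which binds extracellular matrix and is abundant in bone and connective tissue, had 229 UMIs in the marker barcodes of replicate 1 and 266 in those of replicate 2. This was 2183 CPM (1909 to 2485) and 2150 CPM (1899 to 2424), a mean of 2166 ± 23.5 CPM (SD, n = 2). The other barcodes had 38 and 32 Igfbp5 UMIs, or 9.84 and 9.98 CPM. The 2 libraries differed by less than their counting intervals, and the marker level stood 222-fold and 215-fold above the other barcodes in CPM, or 42.4-fold and 32.2-fold on the scale without haemoglobin and mitochondrial UMIs. By composition Igfbp5 was 59.5% (54.4 to 64.4) and 61.0% (56.3 to 65.6) of the family's UMIs in marker barcodes.

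Igfbp6, which prefers IGF-II over IGF-I, had 99 and 95 UMIs in the marker barcodes, a level of 944 CPM (767 to 1149) and 768 CPM (621 to 939). Their mean was 856 ± 124 CPM (SD, n = 2), and the 2 intervals overlapped. Other barcodes had 40 and 25 UMIs, or 10.4 and 7.80 CPM. Its folds, 91.1 and 98.4 in CPM and 17.4 and 14.7 on the second scale, were the lowest of the 3 abundant members.

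Igfbp4, whose product is among those that PAPP-A cuts, had 53 and 58 UMIs in marker barcodes, a level of 505 CPM (378 to 661) and 469 CPM (356 to 606). The mean was 487 ± 25.8 CPM (SD, n = 2). Other barcodes had 12 and 8 UMIs, or 3.11 and 2.50 CPM. The folds were 163 and 188 in CPM and 31.1 and 28.1 on the second scale.

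Igfbp7, a low-affinity IGF binder secreted by vascular endothelium and stroma, had 4 UMIs in the marker barcodes of replicate 1 and 16 in those of replicate 2. Its 38.1 CPM (10.4 to 97.6) and 129 CPM (73.9 to 210) averaged 83.7 ± 64.5 CPM (SD, n = 2), so the spread between libraries was nearly as large as the mean. Other barcodes had 7 and 17 UMIs, more than the marker barcodes in both libraries, although the levels of 1.81 and 5.30 CPM were lower. The folds of 21.0 and 24.4 in CPM became 4.02 and 3.65 on the second scale.

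Igfbp3, the main serum carrier of IGFs, had 1 UMI in the marker barcodes, in replicate 2, and 1 in the other barcodes, in replicate 1. Igfbp2 had none in the 55 marker barcodes and 1 UMI in another barcode of replicate 1. A count of 0 in 55 barcodes allows, at 3 counts, a share of barcodes with a UMI of up to 5.45% (exact upper limit 6.49%). The level that 3 UMIs would give in marker barcodes was 28.6 CPM in replicate 1 and 24.2 CPM in replicate 2, so lower levels of Igfbp2 and Igfbp3 were not detectable at this depth.

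These folds were read against all genes. Among the 4868 genes with at least 20 UMIs, 48.4% were at least 10-fold higher in marker than in other barcodes of both libraries by CPM, as were all 4 members that passed that minimum (Igfbp4, Igfbp5, Igfbp6 and Igfbp7). Without haemoglobin and mitochondrial UMIs in the denominator 11.3% of genes passed, and 3 of the 4 members (Igfbp4, Igfbp5 and Igfbp6). The members' median folds on that scale were 24.3 and 21.4, beside medians over all tested genes of 1.90 in replicate 1 and 6.46 in replicate 2. Igfbp2 and Igfbp3, with 1 and 2 UMIs in all, did not pass the minimum. Since the members were chosen for these values, the counts describe them and support nothing.

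The order of the members depends on whether length is taken into account. Divided by the length of each gene's merged exons, Igfbp6 led with 770 ± 112 CPM per kb, followed by Igfbp5 with 361 ± 3.91, Igfbp4 with 110 ± 5.84 and Igfbp7 with 69.3 ± 53.3 (SD, n = 2). Igfbp6 exons cover 1.11 kb and those of Igfbp5 6.01 kb, and the order of this pair is the reverse of that by UMIs. The first 3 differed by more than their spread, whereas Igfbp4 and Igfbp7 did not: in replicate 2 they stood at 106 and 107 CPM per kb. The sources used here do not state which transcript end was read. Each UMI stands for 1 captured RNA molecule, and UMIs read from either end would not grow with length. Dividing by length is therefore not a correction of such counts. The order by UMIs is the one used here, and the values per kb are only a description.

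In the mm10 genome (GENCODE M21) Igfbp5 spans chr1:72857932-72874884 on the minus strand and Igfbp2 spans chr1:72824503-72852474 on the plus strand. Their 3′ ends face each other across 5457 bases with no gene between them, so the members with most and with fewest UMIs are neighbours. Igfbp3 (chr11:7206086-7213923, minus) lies 3539 bases from Igfbp1 in the same arrangement. Igfbp4 lies at chr11:99041244-99054392 (plus), Igfbp6 at chr15:102144362-102149511 (plus) and Igfbp7 at chr5:77349240-77408041 (minus). Igfbp7 overlaps 2 genes of the opposite strand, Polr2b and Gm34648, and since the sources used here do not state whether counting used strand, its counts are less certain than those of the other members, which overlap no gene.

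The promoters of the 3 abundant members are shown with that of Igfbp2, the neighbour of Igfbp5 with no UMI in marker barcodes. Each runs 5′ to 3′ on the gene's strand from 250 bases before to 50 bases after the RefSeq start (GRCm38.p6, the assembly of mm10). Capitals mark matches on either strand to 5 motifs. These were the TATA box with the letters TATAAA, the box named for its letters CCAAT, the GC box with the letters GGGCGG, the core that WT1 and EGR1 sites share with the letters GCGTGGG, and the AP-1 site with the letters TGANTCA. A GC box and a WT1 core can share part of their letters, and no such overlap occurred in these windows.
Igfbp5, chr1:72874816-72875115, minus strand: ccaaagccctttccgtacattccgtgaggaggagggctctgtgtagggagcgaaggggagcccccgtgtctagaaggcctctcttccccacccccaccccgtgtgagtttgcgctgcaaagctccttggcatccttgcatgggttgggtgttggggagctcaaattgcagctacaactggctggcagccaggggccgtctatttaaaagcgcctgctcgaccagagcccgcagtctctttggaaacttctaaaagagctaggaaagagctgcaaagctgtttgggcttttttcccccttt
Igfbp6, chr15:102143936-102144235, plus strand: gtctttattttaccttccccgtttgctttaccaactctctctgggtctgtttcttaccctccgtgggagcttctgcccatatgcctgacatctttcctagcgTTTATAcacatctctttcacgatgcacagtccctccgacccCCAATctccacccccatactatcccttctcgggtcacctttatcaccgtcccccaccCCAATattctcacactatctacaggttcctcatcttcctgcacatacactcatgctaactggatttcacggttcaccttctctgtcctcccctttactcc
Igfbp4, chr11:99040994-99041293, plus strand: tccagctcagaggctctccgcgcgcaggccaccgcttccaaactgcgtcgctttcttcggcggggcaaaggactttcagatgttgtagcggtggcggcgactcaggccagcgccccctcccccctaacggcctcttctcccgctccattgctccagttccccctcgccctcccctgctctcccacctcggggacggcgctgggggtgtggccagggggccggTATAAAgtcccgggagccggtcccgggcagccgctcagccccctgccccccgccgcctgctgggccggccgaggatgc
Igfbp2, the first of 2 RefSeq starts, chr1:72824230-72824529, plus strand: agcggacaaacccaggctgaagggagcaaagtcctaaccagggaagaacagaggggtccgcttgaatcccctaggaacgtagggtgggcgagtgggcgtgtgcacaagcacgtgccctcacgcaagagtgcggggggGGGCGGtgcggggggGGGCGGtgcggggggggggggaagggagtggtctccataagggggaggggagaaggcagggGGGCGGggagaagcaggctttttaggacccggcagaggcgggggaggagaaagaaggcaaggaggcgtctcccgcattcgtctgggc

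Igfbp4 held a TATA box 28 bases before its start. Igfbp6 held CCAAT at 107 and 50 bases before the start and a TATA box on the opposite strand at 148 bases before it. Igfbp5 held no exact match to the letters of the 5 motifs in this window, and the Igfbp2 window held a GC box at 113, 98 and 37 bases before the start. Near matches, such as the run tatttaaa in the Igfbp5 window, were not counted, so a TATA-like element there is not excluded. The WT1 core was in none of the 4 windows. Of the windows not shown, that of Igfbp7, found in 12 marker barcodes, held a GC box at 110, 96, 74 and 44 bases before the start. The Igfbp3 window held no exact match to the 5 motifs. The second Igfbp2 start had no GC box and an AP-1 site 39 bases before it. A GC box was thus found both in a member with RNA in marker barcodes and in one without. Of all 32851 mouse promoters of this length, 13.6% held a TATA box, 37.4% CCAAT, 35.7% a GC box, 5.04% the WT1 core and 7.81% the AP-1 site. GC content was 56.3% for Igfbp5, 49.7% for Igfbp6, 71.3% for Igfbp4 and 67% for Igfbp2, beside a median of 52.7% over all promoters. No motif of the 5 was in the windows of all 3 abundant members. A match is a run of letters and not a bound site. The RefSeq start of Igfbp6 lies upstream of the GENCODE gene span given above, so its window ends before that span begins.

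Most marker barcodes held at least 1 IGFBP, and most of those held several. At least 1 member was found in 29 of 32 marker barcodes of replicate 1 (90.6%, 74.98 to 98.02) and 22 of 23 of replicate 2 (95.7%, 78.1 to 99.9). In other barcodes the shares were 66 of 976 (6.76%, 5.27 to 8.52) and 42 of 826 (5.08%, 3.69 to 6.81). Thinned to 500 UMIs per barcode, which left no barcode out, the expected shares were 62.1% and 70.3% in marker barcodes and 4.64% and 3.30% in the others. Of the 4 marker barcodes with no member, 3 had 35, 61 and 262 UMIs that were neither haemoglobin nor mitochondrial. The other had 8558, with 4 of the 5 marker genes and no UMI of the family. The 51 with a member had a median of 2137.

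Igfbp5 lay in 22 of 32 and 20 of 23 marker barcodes, Igfbp6 in 21 and 18, Igfbp4 in 16 and 12, and Igfbp7 in 3 and 9. After thinning, the expected shares were 45.4% and 47.6% for Igfbp5, 34.5% and 32.2% for Igfbp6, and 26.5% and 13.6% for Igfbp4. At least 2 members were found together in 17 of 32 marker barcodes (53.1%, 34.7 to 70.9) and 20 of 23 (87.0%, 66.4 to 97.2), and at least 3 in 15 and 14. Only 20 of the 1802 other barcodes held 2 or more. The mean share with at least 2 members was 70.0% ± 23.9 as counted and 30.5% ± 4.44 when thinned to 500 UMIs (SD, n = 2). Thinning turned the order of the libraries, from 53.1% and 87.0% to 33.6% and 27.4%, and matched total UMIs but not the mitochondrial share.

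Igfbp4, Igfbp5 and Igfbp6 were often found in the same barcodes. Igfbp4 was accompanied by Igfbp5 in 14 of 16 barcodes of replicate 1 and 12 of 12 of replicate 2, while 8 of 16 and 8 of 11 marker barcodes without Igfbp4 held Igfbp5. In replicate 1 those with Igfbp4 were no deeper than those without (medians of 1550 and 1896 UMIs not haemoglobin or mitochondrial), whereas in replicate 2 they were (4814 and 878). Igfbp5 and Igfbp6 shared 32 barcodes, 76.2% of the 42 with Igfbp5 and 82.1% of the 39 with Igfbp6. Correlations were taken on the scale without haemoglobin and mitochondrial UMIs. Across marker barcodes the Spearman correlation of the levels of Igfbp5 and Igfbp6 was 0.61 in replicate 1 (n = 32) and 0.03 in replicate 2 (n = 23), so the libraries did not share that relation. For Igfbp4 and Igfbp5 it was 0.59 and 0.30, and for Igfbp4 and Igfbp6 0.49 and 0.33. Igfbp7 lay in 1 of 16 marker barcodes with Igfbp4 and 2 of 16 without in replicate 1, and in 4 of 12 and 5 of 11 in replicate 2. Its correlations with Igfbp4, Igfbp5 and Igfbp6 were -0.19, 0.05 and -0.03 in replicate 1 and -0.25, -0.33 and -0.15 in replicate 2. These points share depth within each library and are given as a description.

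**Figure D1:**
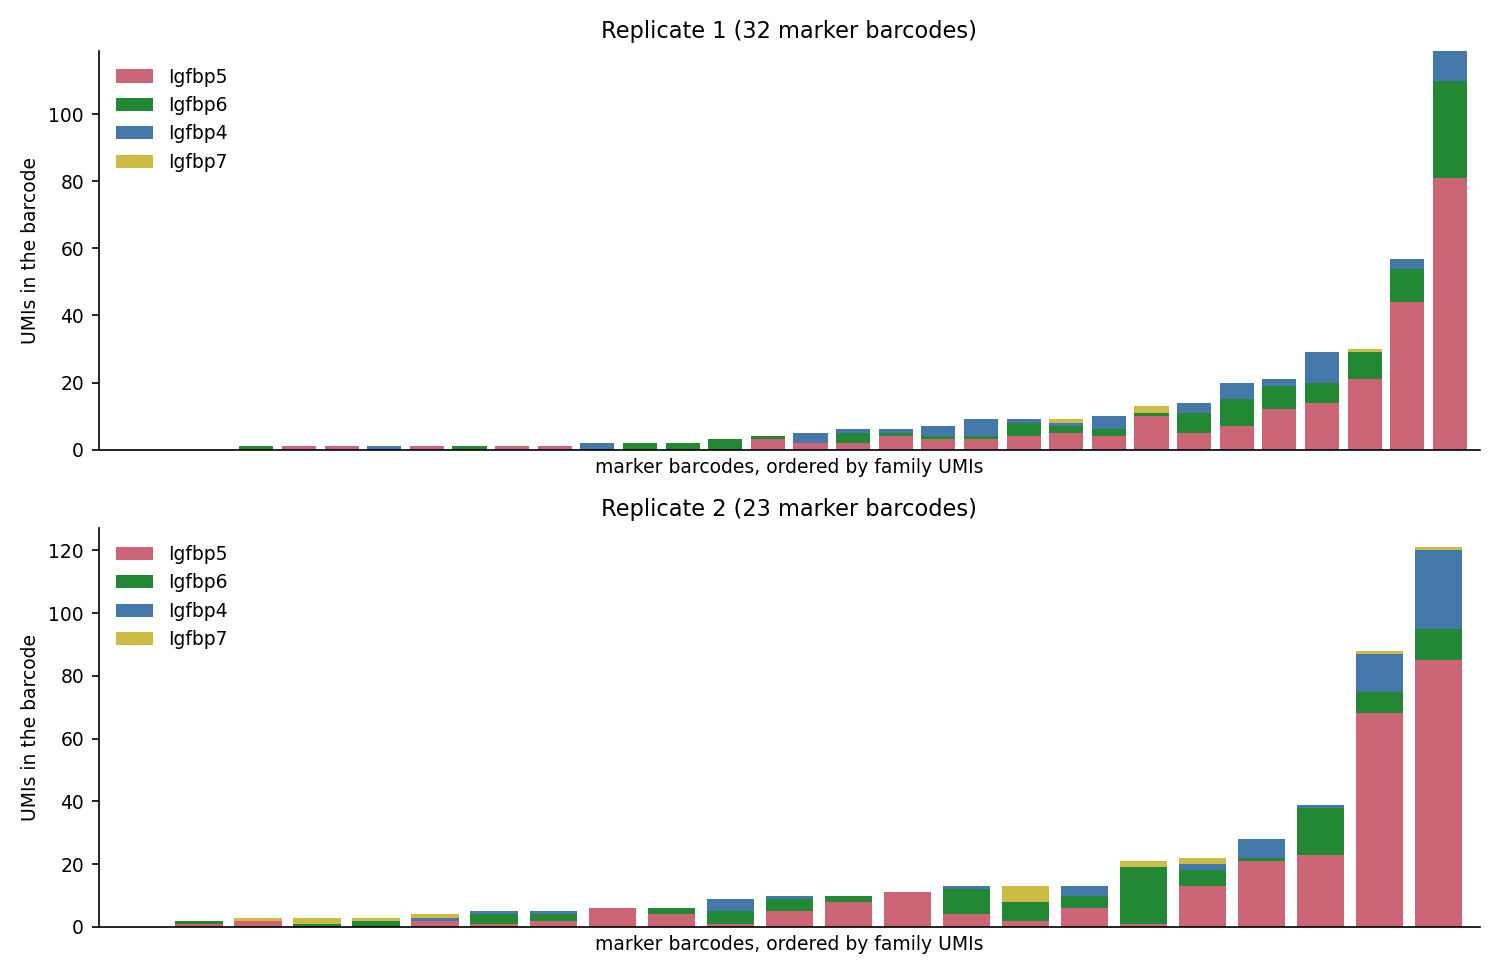
UMIs of Igfbp5, Igfbp6, Igfbp4 and Igfbp7 in each marker barcode, stacked, with 1 bar per barcode, ordered by the family's UMIs, for replicate 1 (top, 32 barcodes) and replicate 2 (bottom, 23 barcodes). A pair of barcodes at the right of each panel holds 176 of 385 and 209 of 436 family UMIs, and 3 and 1 barcodes hold none. The 1 Igfbp3 UMI is not drawn.

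A few barcodes carried a large part of the counts, as the stacked bars show. Igfbp5 ran from 0 to 81 UMIs per marker barcode in replicate 1 (median 2) and from 0 to 85 in replicate 2 (median 4). The 2 highest barcodes held 125 of 229 Igfbp5 UMIs in replicate 1 (54.6%) with 12.5% of the marker barcodes' depth, and 153 of 266 in replicate 2 (57.5%) with 26.3% of it. For Igfbp6 the 2 highest held 39 of 99 and 33 of 95, and for Igfbp4 18 of 53 and 37 of 58. Each pair was picked by its own UMIs, which favours a share above that of depth, so no conclusion on concentration is drawn. Without the marker barcode with most member UMIs in each library, the Igfbp5 level was 1662 ± 142 CPM (SD, n = 2).

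Levels also differed with the mitochondrial share of a marker barcode. On the scale without haemoglobin and mitochondrial UMIs, marker barcodes over 20% mitochondrial (13 and 8) had a family level of 11124 and 7940, and those at or under 20% (19 and 15) had 3239 and 3610. Igfbp5 stood at 6212 and 3823 against 2005 and 2309, and Igfbp6 at 2817 and 3333 against 841 and 620. In each library 1 barcode just past the limit, at 20.2% and 21.5% mitochondrial, held 44 of the 86 and 23 of the 39 Igfbp5 UMIs of those over it. Without that pair, an alternative added after the data were seen, Igfbp5 stood at 3661 and 2618, so that replicate 2 was close to the 2309 of barcodes under the limit, while Igfbp6 stood at 2528 and 3109 and the family at 8456 and 6873. Igfbp4 differed widely in replicate 1, with 2095 against 336, and within its counting intervals in replicate 2, with 686 against 519. Igfbp7 had 0 and 1 UMI in marker barcodes over 20% mitochondrial and 4 and 15 in those below, too few to tell the levels apart. Malat1, a nuclear RNA, was at 12785 and 10684 in the marker barcodes over 20% mitochondrial and at 68140 and 35331 in those below. The part of mitochondrial share and nuclear RNA in these differences was not tested.

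**Figure D2:**
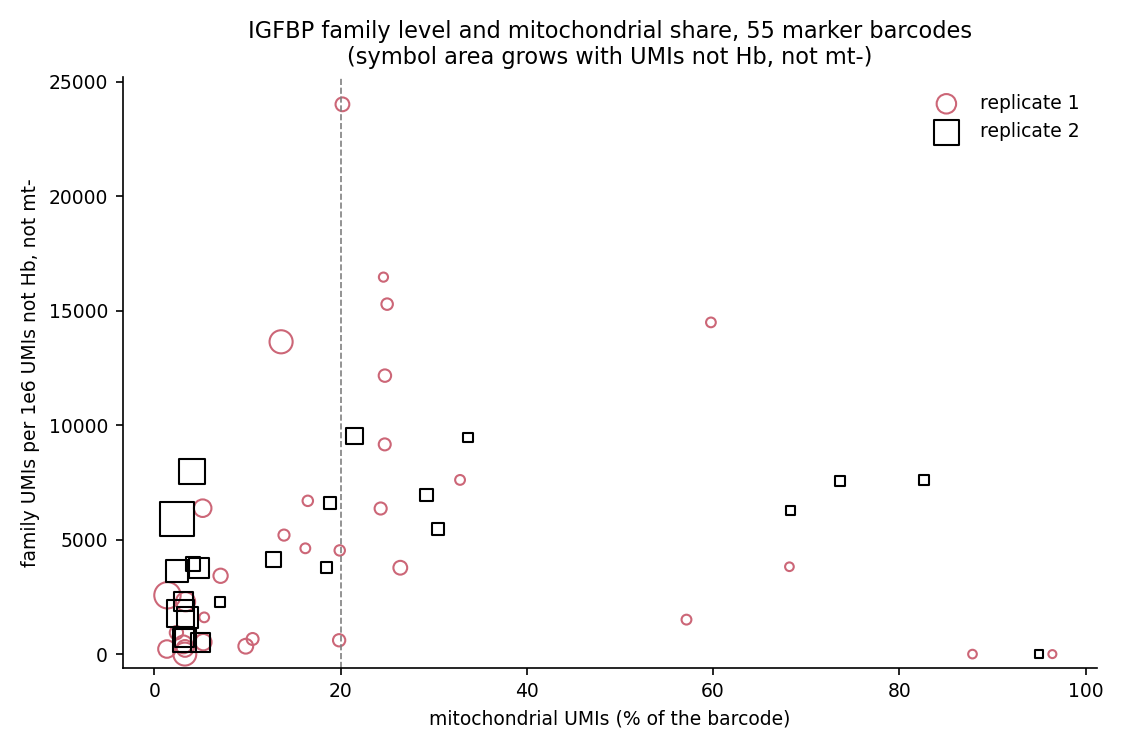
Family level (UMIs per 1e6 UMIs that are neither haemoglobin nor mitochondrial) against the mitochondrial share of each of the 55 marker barcodes, with circles for replicate 1, squares for replicate 2, symbol area growing with the UMIs in the denominator, and a dashed line at 20%. Summed, the barcodes right of the line stand at 11124 and 7940 and those left of it at 3239 and 3610. The large symbols, the deepest barcodes, lie far to the left, and the 3 barcodes farthest to the right hold no family UMI.

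The family level was also split by each of the 5 genes that chose the barcodes. On the scale without haemoglobin and mitochondrial UMIs, marker barcodes with a Col3a1 UMI (23 and 17) had a family level of 5262 and 4822, and those without (9 and 6) had 1694 and 1264. Igfbp5 was at 3202 and 2905 with Col3a1 and at 734 and 897 without it. Igfbp6 was at 1304 and 1060 against 621 and 245, and Igfbp4 at 697 and 679 against 339 and 41, the last from 1 UMI. The barcodes with most family UMIs, 119 and 57 in replicate 1 and 121 and 88 in replicate 2, all held Col3a1. By UMIs that were neither haemoglobin nor mitochondrial, the barcodes without Col3a1 were shallower in replicate 1 (median 883 against 2137) and deeper in replicate 2 (4164.5 against 3157). Gpm6a, a membrane glycoprotein gene, gave the same order, with a family level of 5076 and 4126 with it and 1508 and 2842 without it. Dcn, which encodes the matrix proteoglycan decorin, gave the reverse, with 4492 and 3973 against 5374 and 6087, the latter from 4 and 3 barcodes. The libraries did not share an order for Wt1 (4661 and 3888 with it, 3928 and 7297 without) or Muc16 (4738 and 4000 with it, 4090 and 4614 without). The Spearman correlation of the family's level with that of Col3a1 on the same scale was 0.02 in replicate 1 (n = 32) and 0.62 in replicate 2 (n = 23). Each split used a gene that also chose the barcodes, so those without it must hold at least 2 of the remaining genes. The splits are a description, and no relation between the genes is drawn from them.

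The 2-gene minimum for a marker barcode did not separate family levels on the second scale, although CPM and detection differed across it. Just inside it, barcodes with exactly 2 of the 5 genes (11 and 5) had 32 and 17 family UMIs and a level of 3402 and 6043 on the scale without haemoglobin and mitochondrial UMIs. Just outside it, barcodes with exactly 1 (46 and 33) had 25 and 34 UMIs and 4010 and 4392. Their median mitochondrial shares were 94.2% and 87.5%, with a median of 48 and 144 UMIs in the denominator. Barcodes with none of the 5 (930 and 793) had 74 and 48 UMIs and 125 and 116. Farther inside, the level did not rise steadily: barcodes with exactly 3 (5 and 2) had 19 and 8 UMIs and 1599 and 1239. Those with 4 or 5 (16 and 16) had 334 and 411 UMIs and 5229 and 4141. In CPM, barcodes with exactly 2 genes had 1527 and 1932 and those with exactly 1 had 415 and 853, with intervals that overlapped in replicate 2 only. At least 1 member was found in 81.8% and 80% of those with exactly 2 and in 30.4% and 36.4% of those with exactly 1. Thinned to 500 UMIs, these shares were 55.5% and 59.3% against 22.8% and 26.9%.

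The family UMIs outside the marker barcodes lay mostly in barcodes rich in mitochondrial RNA. Of the 181 such UMIs, 164 were in the 747 other barcodes over 20% mitochondrial, among them 67 of 70 Igfbp5, 63 of 65 Igfbp6, 17 of 20 Igfbp4 and 15 of 24 Igfbp7 UMIs. These barcodes are shallow once mitochondrial UMIs are set aside, with medians of 37 and 41 UMIs left. In the 647 over 80% mitochondrial the family stood at 4716 and 3190 on the scale without haemoglobin and mitochondrial UMIs, next to 4520 and 4017 in marker barcodes. In the 100 between 20% and 80% it stood at 503 and 1583.

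Igfbp6 made up more of the family there in both libraries, by little more than counting error. In other barcodes over 20% mitochondrial, Igfbp5 and Igfbp6 took like shares of the family's UMIs, 40.4% (30.4 to 51.0) each in replicate 1 and 41.4% (29.8 to 53.8) and 35.7% (24.6 to 48.1) in replicate 2. In marker barcodes Igfbp6 had 25.7% (21.4 to 30.4) and 21.8% (18.0 to 26.0), intervals that touched those of the mitochondrial barcodes in replicate 1 and overlapped them in replicate 2. Igfbp6 in barcodes over 80% mitochondrial stood at 2167 and 1387 on the second scale, above its 1162 and 875 in marker barcodes, with intervals that overlapped in replicate 2. Igfbp5 stood at 1593 and 1110, below its 2689 and 2451, with intervals that touched in replicate 1. Igfbp7 stood at 382 (140 to 832) and 555 (239.5 to 1093), from 6 and 8 UMIs, above its 46.97 (12.8 to 120) and 147 (84.3 to 239.4) in marker barcodes. Of the 44 such barcodes over 20% mitochondrial with Igfbp5, 14 also held Igfbp6 (31.8%), against 35 of the 703 without (4.98%), with median depths of 106 and 36 UMIs left.

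Blood cell barcodes at no more than 20% mitochondrial UMIs held almost none of the family. The haemoglobin, leukocyte, platelet and endothelial sets all keep to that limit, and all but the first to under 50% haemoglobin. Ptprc also lay in 26 and 7 of the other barcodes over 20% mitochondrial, which these sets leave out. The 845 other barcodes with at least 50% haemoglobin had 1 family UMI, of Igfbp4, among 655117 UMIs that were neither haemoglobin nor mitochondrial, at a median of 706 per barcode. The 0 of 845 with Igfbp5 allows, at 3 counts, a share of barcodes with a UMI of up to 0.355% (exact upper limit 0.436%), and set against the level of 3 UMIs over both libraries Igfbp5 was at least 558-fold higher, and Igfbp6 at least 219-fold higher, in marker barcodes on the second scale. The 56 other barcodes with at least 3 leukocyte genes had 2 Igfbp4 and 2 Igfbp6 UMIs, all in replicate 1, and none of Igfbp5, which was at least 127-fold higher in marker barcodes by the same floor. Those 56 had a median of 1989 UMIs not haemoglobin or mitochondrial, near the 1871 of marker barcodes. The 11 with at least 3 platelet genes had 0 family UMIs at a median of 689. That 0 allows, at 3 counts, a share of up to 27.3%. The level of 3 UMIs there was 314 on the second scale. Marker barcodes of both libraries together had 2556 for Igfbp5, 1002 for Igfbp6, 573 for Igfbp4 and 103 for Igfbp7.

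**Figure D3:**
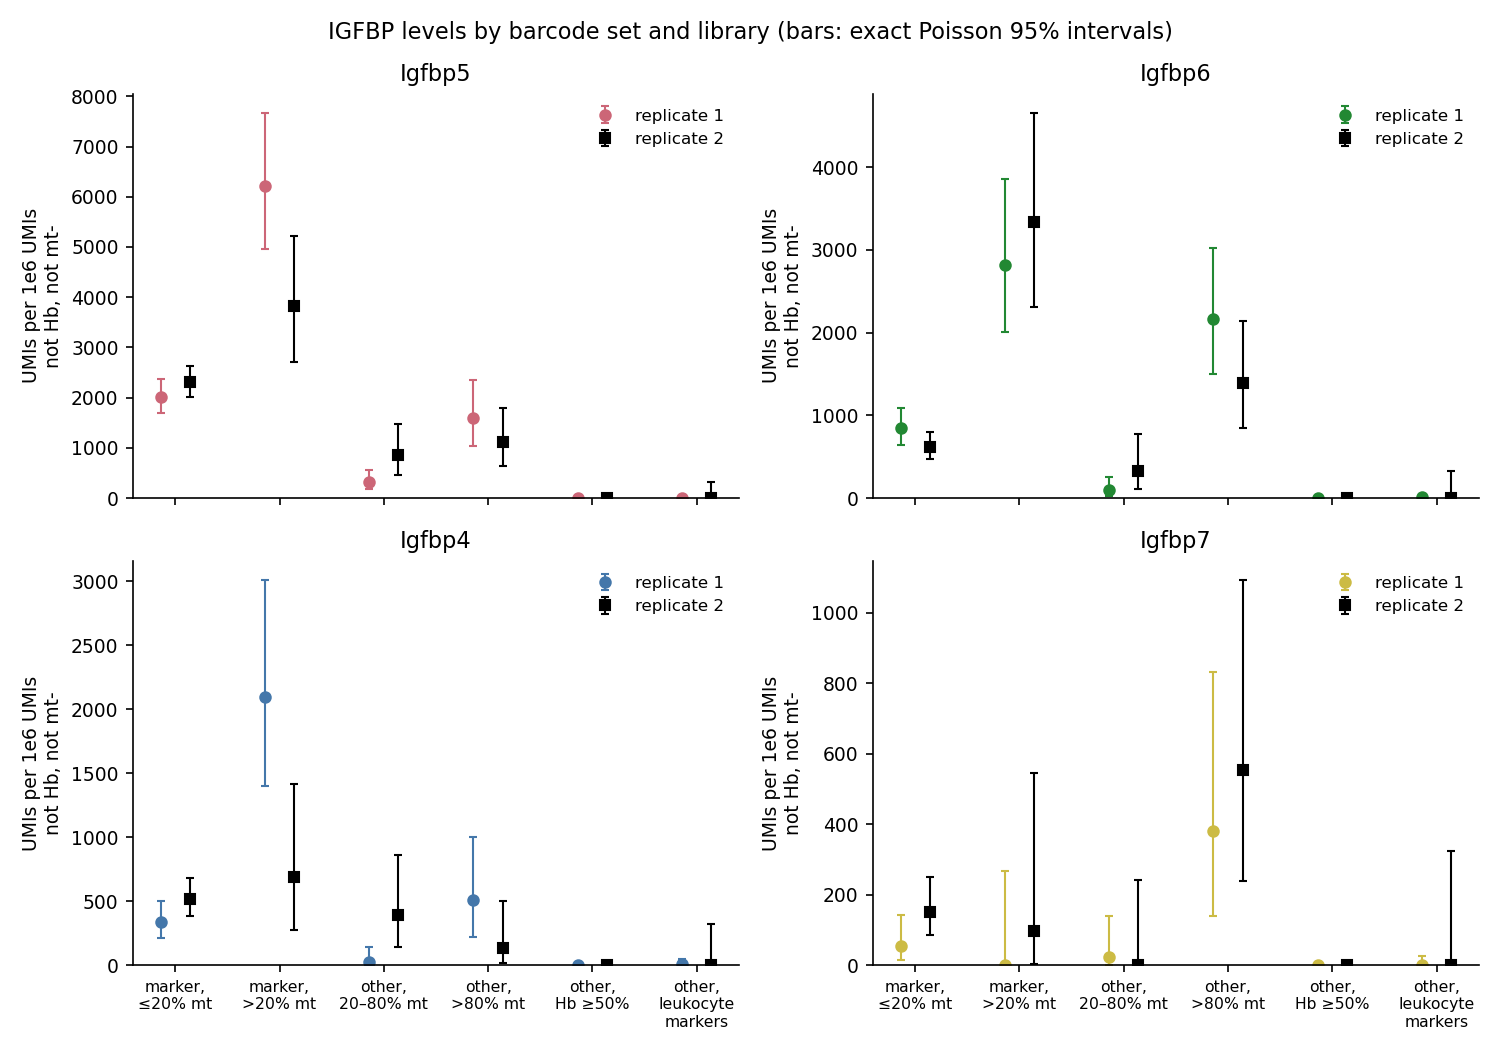
Level of Igfbp5, Igfbp6, Igfbp4 and Igfbp7 (UMIs per 1e6 UMIs that are neither haemoglobin nor mitochondrial, linear axes that differ between panels) in 6 sets of barcodes, coloured circles for replicate 1 and black squares for replicate 2, with exact Poisson 95% intervals. Igfbp5, Igfbp6 and Igfbp4 are high in marker barcodes, and at or near 0 in barcodes with haemoglobin or leukocyte genes. In other barcodes, Igfbp5 and Igfbp6 stand higher over 80% mitochondrial than between 20% and 80%. Igfbp4 rests there on 8 and 2 UMIs over 80% and on 1 and 6 between 20% and 80%.

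Igfbp7 was the member with a place outside these barcodes. The 4 other barcodes with at least 3 endothelial genes held 9 Igfbp7 UMIs and no UMI of any other member. All 9 were in replicate 2, as 5, 2 and 2 UMIs in its 3 such barcodes, each with 0 Ptprc UMIs and none of the 5 rule genes. Over all barcodes, 12 of 28 with Igfbp7 held an endothelial gene, against 116 of 1829 without it. Within marker barcodes these were 7 of 12 and 11 of 43, where those with Igfbp7 were also deeper (medians of 5736.5 and 1572 UMIs not haemoglobin or mitochondrial). In marker barcodes only 3 of the 14 endothelial genes were found, Esam, Kdr and Pecam1, and the defining genes Cdh5, Tie1, Tek, Vwf and Emcn were at 0 in both libraries.

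The rest of the IGF pathway was read from 68 genes in lists of ligands, receptors, proteases, signalling genes and relatives. Of these 26 had at least 20 UMIs, and 20 were at least 10-fold higher in marker barcodes of both libraries by CPM, beside 48.4% of all genes. On the scale without haemoglobin and mitochondrial UMIs 7 of the 26 were, beside 11.3% of all genes: Crim1, Grb10, Htra1, Irs1, Lrp2, Mmp14 and Socs2. The lists' median folds on that scale were 3.74 and 16.6, where all genes had 1.90 and 6.46.

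Of the ligands, Igf1 was found in 7 marker barcodes and Igf2 in none. Igf1 had 2 UMIs in replicate 1 (19.1 CPM) and 53 in replicate 2 (428 CPM), a mean of 224 ± 289 CPM (SD, n = 2), so its level rests on replicate 2. There, 31 of the 53 UMIs came from 1 barcode of 21012 UMIs, the same barcode that held most Igfbp5 (85) and most Igfbp4 (25), and 11 from the next, which had 68 Igfbp5 UMIs. All 7 barcodes with Igf1 held Igfbp5 and Igfbp6. Other barcodes had 0 and 2 Igf1 UMIs and 3 and 2 of Igf2, and the insulin genes Ins1 and Ins2 were at 0 everywhere.

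Among receptors, Igf1r, which carries the IGF signal, had 48 and 51 UMIs in marker barcodes and 45 and 4 in the others, a marker level of 435 ± 32.1 CPM (SD, n = 2). Insr, the insulin receptor, had 17 and 19 (158 ± 6.01 CPM), and Igf2r, which clears IGF-II, 6 and 7 (56.9 ± 0.441 CPM). Lrp1, a scavenger receptor that binds IGFBP-3, had 11 and 15. Lrp2 (megalin), an endocytic receptor, had 25 and 60 (362 ± 174 CPM) and 1 UMI in the other barcodes of each library. Receptor RNA was also found outside marker barcodes: in replicate 1 the 51 other barcodes with leukocyte genes had 257 CPM of Igf1r beside 458 in marker barcodes, 169 of Insr beside 162, and 115 of Lrp1 beside 105. Lrp2 had 0 UMIs and Igf2r 1 UMI in those leukocyte barcodes, and the 5 such barcodes of replicate 2 had 0 UMIs of all of these.

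Of the proteases that cut IGFBPs, Pappa, which encodes PAPP-A, had 7 UMIs in marker barcodes of each library and 0 and 2 in the others. Mmp14 had 11 and 14 against 3 and 1. Adam9 had 0 and 5 against 17 and 3, with 14 of the 17 in leukocyte barcodes, and Adamts1 had 0 and 1 against 4 and 0. Mmp9 and Adam28 had 0 UMIs in marker barcodes, and 9 and 3 in the others, all in leukocyte barcodes. Stc1 and Stc2, which encode inhibitors of PAPP-A, had 1 UMI each in marker barcodes of replicate 1, and Pappa2 had none. Igfals, whose product holds IGFBP-3 or IGFBP-5 and an IGF in the ternary complex of serum, was at 0 everywhere. Of the relatives with an IGFBP domain, Crim1 had 32 and 39 UMIs in marker barcodes (310 ± 7.17 CPM) and 19 and 5 in the others. Htra1, a secreted serine protease, had 8 and 10 (78.5 ± 3.22 CPM) against 2 and 0, while Igfbp1, Igfbpl1 and Esm1 were at 0 in all barcodes. The CCN matrix proteins Ccn1, Ccn2 and Ccn5 had 3, 0 and 0 UMIs in marker barcodes and 9, 1 and 1 in the others.

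Among 25 adaptor and signalling genes, 17 had at least 20 UMIs and 12 were at least 10-fold higher by CPM in both libraries, beside 48.4% of all genes. On the second scale 3 of the 17 were (Grb10, Irs1 and Socs2), beside 11.3% of all genes. Irs1, the docking protein of the IGF-I receptor, had 5 and 17 UMIs in marker barcodes and 0 in all others. Grb10, an adaptor that restrains that receptor, had 30 and 28 UMIs in marker barcodes and 0 and 1 in the others (256 ± 42.2 CPM). Socs2, a feedback inhibitor of growth hormone signalling, had 5 and 14 against 3 and 1. Of the 3 mRNA-binding proteins named for Igf2, only Igf2bp2 reached 5 UMIs in marker barcodes, with 1 and 6.

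**Figure D4:**
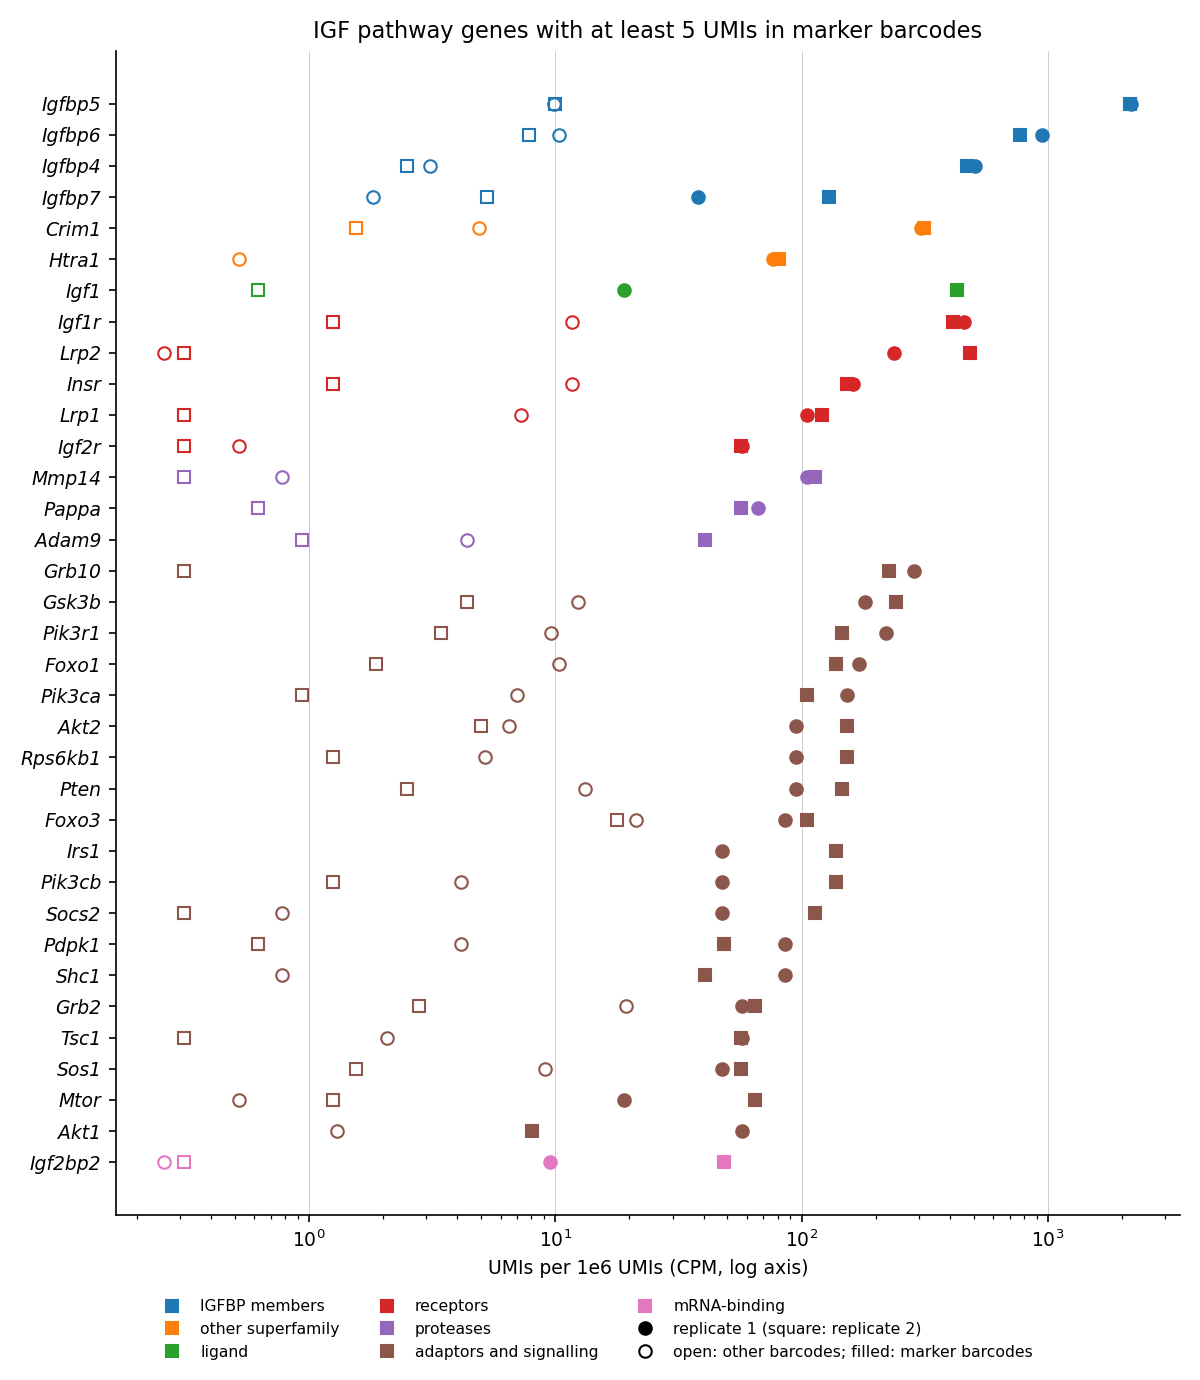
CPM (log axis) of the IGF pathway genes with at least 5 UMIs in marker barcodes, in marker barcodes (filled) and other barcodes (open) of replicate 1 (circles) and replicate 2 (squares), coloured by role; values of 0 and 1 signalling gene are not drawn. The IGFBP members head the plot, with Igfbp5 above 2000 CPM in marker barcodes of both libraries, and Igf1 is the gene whose filled symbols lie farthest apart. Genes were kept by their UMIs in marker barcodes, which favours filled symbols to the right of open ones. Left out by this are Mmp9 (0 UMIs in marker and 9 in other barcodes), Igf2 (0 and 5) and Igf2bp3 (1 and 13), among others.

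The genes whose detection was most like that of each member were ranked by the Jaccard index, the barcodes with both genes divided by those with either, over all 1857 barcodes and 6545 genes found in at least 10. For Igfbp4 (45 barcodes) they were Airn (0.42), Cobl (0.39), Efna5 (0.39), Bicd1 (0.39) and Gpc3 (0.39). For Igfbp5 (87 barcodes) they were Efna5 (0.38), Bicc1 (0.38), Mast4 (0.38), Gpc3 (0.36) and Col3a1 (0.36), with Igfbp6 next (0.35). For Igfbp6 (89 barcodes) they were Efna5 (0.39), Aebp1 (0.36), Igfbp5 (0.35), the complement gene C3 (0.35) and Bicc1 (0.34). Efna5, which encodes an ephrin, was thus among the 5 of all 3 abundant members. Igfbp7 (28 barcodes) shared none of these, and its list was Schip1 (0.30), Gja1 (0.26), Kitl (0.24), Sparc (0.24) and Spsb1 (0.24). The index grows with depth that the genes' barcodes share, and Igfbp2 and Igfbp3, found in 1 and 2 barcodes, were not ranked.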

How the data were processed

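Each library was deposited as a 10x matrix of raw UMI counts, whole numbers per gene and barcode that the authors had not normalized. Per the submitters' processing notes the tools were Cell Ranger 7.1.0 and Seurat 5 and the genome was mm10; the sources used here state neither what Seurat did, nor how cells were called, nor whether intronic reads were counted or doublets removed. No barcode was filtered out and doublets were not called.

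The members, marker genes and gene lists were chosen with earlier results of these data known. UMIs were summed per library and barcode set in Python 3.11.15 (numpy 2.4.6, scipy 1.17.1, pandas 2.3.3). A sum over 104897 and 123730 marker UMIs sets the precision. Shares at 500 UMIs are exact hypergeometric expectations. Folds of all genes used a minimum of 20 UMIs and set a 0 in other barcodes to 3 UMIs. Named genes were the 6 members, the 5 marker genes, pathway genes with at least 5 UMIs in marker barcodes and, per member, the 5 genes of highest Jaccard index; other pathway genes at low counts were named after their values were seen, and 1 signalling gene is counted in its list but not reported here. Alternatives changed the marker minimum, mitochondrial and gene-number limits, scaling, depth, and the libraries or barcodes left out. With 1 group and barcodes split by measured genes, no test was made.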

Additional observations from a re-analysis of the deposited data

How the results depend on the processing

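In all 9 alternatives that give a level, the order by UMIs stayed Igfbp5, Igfbp6, Igfbp4, Igfbp7, and no alternative reversed a fold. The family level in marker barcodes, 3597 ± 104 CPM, was 2678 with at least 1 marker gene, 3926 with at least 3, 3164 at no more than 20% mitochondrial UMIs, 2936 without the barcode with most member UMIs in each library, and 4269 per 1e6 UMIs without haemoglobin and mitochondrial genes. Over single libraries it ran from 3524 to 3670. The fold over other barcodes, 140, was 159 with at least 1 marker gene, 122 with at least 3, 1415 ± 818 at no more than 20% mitochondrial UMIs, 244 with at least 100 detected genes, 115 without the top barcodes, 24.0 without haemoglobin and mitochondrial UMIs, and 33.2 as a mean over barcodes, with single libraries from 138 to 143. The share with at least 1 member, 93.1%, was 57.9% with at least 1 marker gene, 97.6% with at least 3, 97.4% at no more than 20% mitochondrial UMIs, 96.8% with at least 100 detected genes and 66.2% at 500 UMIs, with single libraries from 90.6% to 95.7%. The share with at least 2 members, 70.0%, was 37.3% with at least 1 marker gene and 30.5% at 500 UMIs, with single libraries from 53.1% to 87.0%. Of 54 values of single members, 17 moved by more than the spread between libraries. Values with 1 library left out are among the 54 and by arithmetic cannot exceed that spread. The cause of the moves was not tested. No paired analysis was possible because the 2 replicates belong to 1 group. With 55 marker barcodes, Igfbp2 and Igfbp3 lie under the level that 3 UMIs give.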
